A study of Mus musculus with 75 samples.

Results

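The comparison described here sets 7 libraries labelled Tumor against 6 libraries labelled Vehicle, all from mice of 10 months, which is 13 of the 75 liver RNA libraries of the series. The members were taken from the risk group and age labels alone, with no measured value. The mice were male C57Bl/6. The tumor donors had been exposed to tributyltin (TBT), an organotin compound once used in marine paints, through their mothers' drinking water, which supplied 0.5 mg TBT per kg of weight each day (3.07 µM) and ended at weaning. The vehicle mice had no TBT, so a difference between tumor and liver and a difference between TBT and no TBT cannot be told apart here. A side comparison with 5 exposed livers labelled low risk, also of 10 months, carries the exposure on both sides. The single library labelled Vehicle (tumor), from a mouse with no TBT, is shown as an extra point and enters no test, and liver labelled as uninvolved from high-risk mice is given as levels. All of these libraries belong to the first sequencing batch. Titles number the mice separately within each exposure and say nothing of litters or dams, so the p-values below measure the spread between these samples. The labels give no histology and do not say how much surrounding liver a tumor sample holds.

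Liver tumors of hepatocyte origin commonly regain cell division and genes of the fetal liver, and lose parts of the adult hepatocyte programme of plasma protein secretion, bile acid and cholesterol handling and drug metabolism. The adult mouse liver is also zoned along the blood flow, with Wnt signalling setting the genes next to the central vein, and it is sexually dimorphic, with pulses of growth hormone in males setting genes such as the major urinary proteins. A piece of tumor holds other cells as well, among them stellate cells, macrophages, endothelium and lymphocytes, whose numbers can differ from those of normal liver. In bulk RNA, fewer cells of a type and less RNA per cell cannot be told apart.

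The libraries held 26165227 to 30983742 counts in the vehicles and 22502522 to 27894659 in the tumors, with 21078 to 22006 and 22609 to 23868 genes detected. Mitochondrial genes took 3.14 to 3.83% of counts in the vehicles and 2.64 to 3.46% in the tumors, against 14.1% in the Vehicle (tumor) library, which held 11508759 counts. Pairs of vehicles correlated at 0.982 to 0.990 (Pearson's r over log2-scaled levels, across 13083 genes, which are not independent replicates) and pairs of tumors at 0.926 to 0.979, the lowest between tumors 7 and 11. All 14 hepatocyte identity genes, albumin among them, were detected in both groups. The first principal component was computed from the vehicle and tumor libraries alone and held 67.6% of their variance. It placed every vehicle between -60.6 and -46.9 and every tumor between 2.26 and 72.4, with tumor 7 the nearest to the vehicles.

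Of 15293 genes tested with edgeR's quasi-likelihood test, 3800 were higher and 3216 lower in tumors at a Benjamini-Hochberg adjusted p under 0.05, or 24.8% and 21.0% of those tested (45.9% in all). The sizes were uneven between the directions: 1985 of the higher genes and 389 of the lower genes had moved by more than 2-fold, and 328 and 31 by more than 8-fold. The split between directions depends on the scaling. With total counts in place of the trimmed mean of M values (TMM), which puts the median gene at 0.29 on the log2 scale, 7413 genes were higher and 874 lower. All directions below are relative to the typical gene under TMM. In 3032 of the called genes the tumors and vehicles did not overlap at all, a pattern that 19.9% of the genes tested had.

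**Figure D1:**
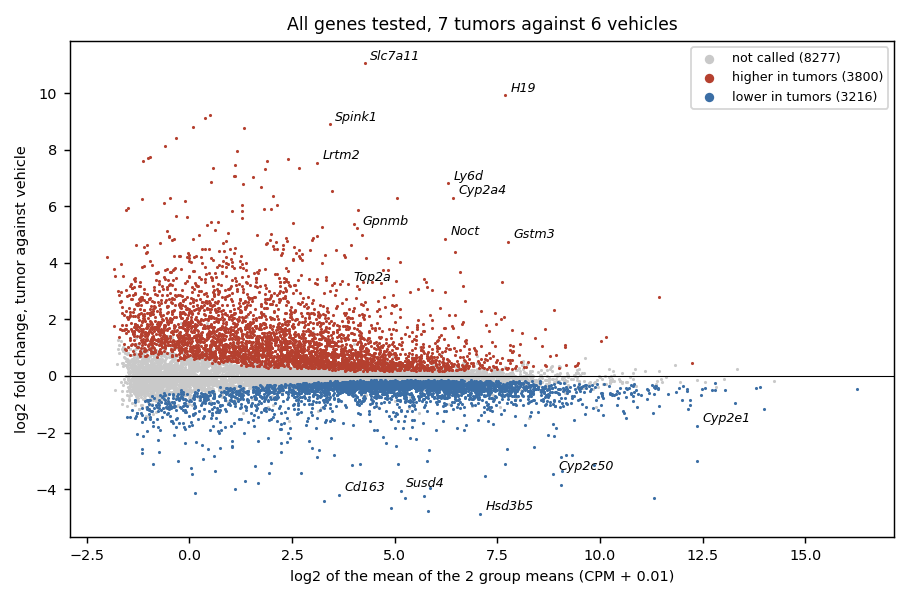
Log2 fold change of tumor against vehicle (vertical axis) against the log2 of the average of both group means in CPM plus 0.01 (horizontal axis), 1 point per gene tested, with called genes in red (higher) and blue (lower). The higher genes reach far larger changes than the lower ones, up to 11.05 for Slc7a11 against -4.88 for Hsd3b5.

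The genes with the largest increases were at or near 0 in vehicles. These genes, and the leading decreases below, were picked among genes whose groups do not overlap, so their separation was set by the choice. Levels are given in CPM, a library's counts per 1e6 of its TMM-scaled total, as lowest, median and highest library. H19, the imprinted noncoding RNA that the fetal liver makes in large amounts (chr7:142575529-142578143, GRCm38), measured 0.124, 0.464 and 0.571 CPM in the vehicles and 5.55, 246 and 1497 in the tumors. Every tumor was above every vehicle, yet the tumors themselves ranged widely, with tumor 7 the lowest and tumor 12 the highest. The log2 fold change was 9.91 ± 1.47 (SE), with an adjusted p of 0.000155, and 9.09 without tumor 12. Slc7a11, the cystine importer that feeds glutathione synthesis (chr3:49892526-50443614), gave 2 counts in all 6 vehicles together. Its tumor levels were 2.46, 27.5 and 103 CPM. The pooled ratio of tumor to vehicle was 2981 with a 95% interval of 825 to 24619 that covers counting error only, and its fitted log2 fold change of 11.05 ± 1.5 depends on the prior count. Spink1, a secreted trypsin inhibitor, had 0.448, 7.42 and 81.2 CPM in tumors against at most 0.0826 in vehicles (log2 fold change 8.90 ± 1.63, adjusted p = 0.000688). Without tumor 11 its log2 fold change was 8.01.

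Among the other 7 leading increases, Ly6d, a small GPI-anchored surface protein known from lymphoid and epithelial progenitors, had 1.02, 1.19 and 2.32 CPM in vehicles and 15.7, 171 and 331 in tumors (log2 fold change 6.81 ± 0.66, adjusted p = 8.81e-06). Tumor 7 again gave the lowest value, and still lay well above the highest vehicle. Lrtm2, a leucine-rich repeat membrane protein best known from neurons, was more even, with 8.70, 18.6 and 25.2 CPM in tumors and 0, 0.0200 and 0.286 in vehicles. Rasal1, a Ras GTPase-activating protein, reached 1.66, 9.12 and 34.2 CPM and Shc2, an adaptor of receptor tyrosine kinases, 4.12, 25.6 and 35.3 CPM, against vehicle maxima of 0.160 and 0.483. Cyp2a4, a steroid hydroxylase with higher levels in female mouse liver, measured 24.0, 101 and 515 CPM against 1.26, 2.06 and 3.27. It has a near-identical neighbour, Cyp2a5, so the share of reads that belongs to each is uncertain. Ubd, a ubiquitin-like protein induced by cytokines, rose from 0.327, 0.904 and 1.27 to 6.89, 47.4 and 179.7 CPM. Gsta1, a glutathione transferase with a close paralog in Gsta2, rose from 0.263, 0.484 and 1.08 to 3.36, 24.7 and 75.4 CPM. The log2 fold changes of these 6 genes lay between 5.86 and 7.54, with adjusted p-values from 4.52e-07 to 8.13e-05. Lrtm2 came to 8.35 without vehicle 4 and Cyp2a4 to 5.71 without tumor 1.

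**Figure D2:**
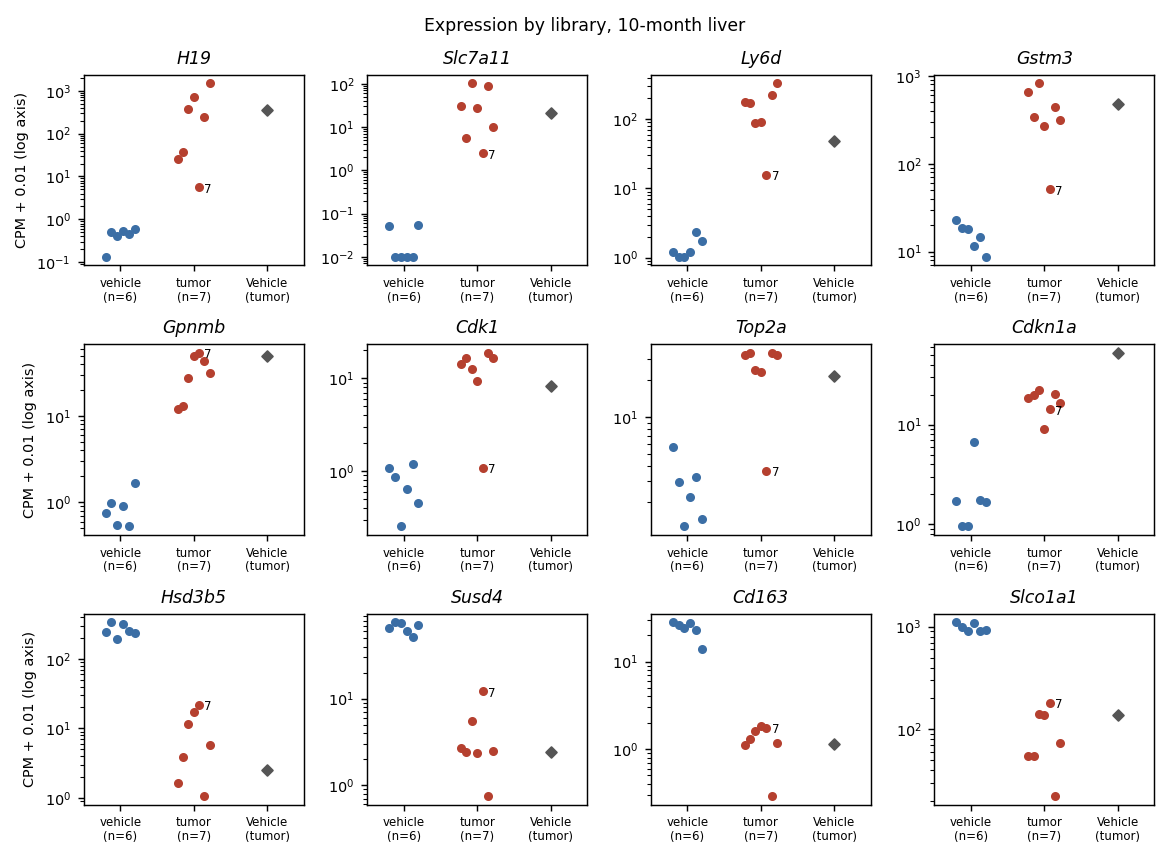
CPM plus 0.01 on a log axis for 12 genes, 1 point per library, in the 6 vehicles (blue), the 7 tumors (red, with tumor 7 numbered) and the library labelled Vehicle (tumor) (grey diamond). H19, Slc7a11, Ly6d and Gstm3 lie above every vehicle in every tumor and Hsd3b5, Susd4, Cd163 and Slco1a1 below, while for Cdk1 and Top2a tumor 7 lies within the vehicle range.

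The 10 leading decreases were smaller than the leading increases. Hsd3b5, a steroid dehydrogenase of the adult male mouse liver (chr3:98618634-98630252), had 195, 249 and 337 CPM in vehicles and 1.06, 5.78 and 21.8 in tumors (log2 fold change -4.88 ± 0.60, adjusted p = 4.63e-05). Susd4, a complement regulator with male-biased liver expression, had 51.9, 68.2 and 76.5 against 0.742, 2.44 and 12.2 CPM. Slco1a1, an organic anion transporter of the male liver, had 902, 963 and 1104 against 22.4, 73.6 and 181 CPM. Cd163, the haemoglobin scavenger receptor of resident macrophages, had the smallest error of these 4 genes, with 13.8, 25.1 and 28.0 CPM in vehicles and 0.283, 1.30 and 1.80 in tumors (log2 fold change -4.19 ± 0.28, adjusted p = 4.46e-07). Cyp2c37, Cyp2c50 and Cyp2c54, neighbouring cytochrome P450 genes whose reads can be split between similar copies, had vehicle medians of 251, 796 and 312 CPM and tumor medians of 10.2, 54.2 and 29.0. Tumor 6 had the most Cyp2c37 of the tumors, at 88.6 CPM, and the log2 fold change of -3.54 became -4.42 without it. Slc17a8, a vesicular glutamate transporter, Dct, known as a melanin synthesis enzyme, and Acpp, prostatic acid phosphatase, completed the 10, with log2 fold changes of -3.10, -3.42 and -3.12. Without tumor 11 the value for Acpp was -3.91. The Mup genes, whose copies are too alike to be told apart, were summed over 49 members. That sum was 5120 ± 1927 CPM (SD, n = 7) in tumors and 23172 ± 3564 (SD, n = 6) in vehicles, with no overlap between 2747 to 8794 and 18187 to 26442.

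Cell division genes rose together. All 20 of 20 mitosis genes were called higher (24.8% of all genes tested were), with a median log2 fold change of 3.38 (against -0.0057 over all genes tested). Cdk1, the kinase that drives entry into mitosis, had 0.245, 0.749 and 1.20 CPM in vehicles and 1.07, 14.3 and 18.8 in tumors (log2 fold change 4.10 ± 0.55, adjusted p = 7.47e-05). Top2a, the topoisomerase that untangles sister chromatids, had 1.27, 2.57 and 5.70 against 3.63, 32.1 and 33.7 CPM, and Birc5, which encodes survivin of the chromosomal passenger complex, 0.527, 0.647 and 0.991 against 1.12, 4.87 and 7.11. Nusap1, a spindle protein, rose by 2.56 on the log2 scale. The tumor minima of Cdk1, Top2a and Nusap1 all belong to tumor 7, whose Cdk1 of 1.07 CPM was within the vehicle range. In 1 of the 20 genes every tumor was above every vehicle, where 11% of all genes tested had that pattern. Without tumor 7 all 20 were still called. Of 20 DNA replication genes, 16 rose and none fell, with a smaller median of 0.78. Gins2, Mcm5 and Mcm6, all of the replicative helicase, rose by 3.28, 1.84 and 1.79 on the log2 scale and Pole, the leading-strand polymerase, by 1.37. Leaving out tumor 12 left 12 calls.

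Mitosis promoters often carry CCAAT boxes and the cell cycle homology element TTTGAA, so the RefSeq promoter windows (GRCm38.p6, 250 bases before the start) of the list were searched for both on either strand. Of 17 mitosis genes with a window, 15 held CCAAT (88.2%) and 8 held TTTGAA (47.1%), against 40.2% and 13.3% of the 11041 tested genes with a window. The windows of Top2a (chr11:99024190-99024439, minus strand) and Cdk1 (chr10:69352913-69353162, minus strand) are shown because they held the most matches among the mitosis genes named above. Capitals mark each match, CCAAT or its complement ATTGG and TTTGAA or its complement TTCAAA:
Top2a: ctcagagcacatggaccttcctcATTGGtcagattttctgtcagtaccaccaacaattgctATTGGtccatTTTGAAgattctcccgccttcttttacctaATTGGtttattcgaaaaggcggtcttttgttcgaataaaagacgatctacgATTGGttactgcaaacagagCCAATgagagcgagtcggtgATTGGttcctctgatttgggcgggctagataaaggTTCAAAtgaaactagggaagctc
Cdk1: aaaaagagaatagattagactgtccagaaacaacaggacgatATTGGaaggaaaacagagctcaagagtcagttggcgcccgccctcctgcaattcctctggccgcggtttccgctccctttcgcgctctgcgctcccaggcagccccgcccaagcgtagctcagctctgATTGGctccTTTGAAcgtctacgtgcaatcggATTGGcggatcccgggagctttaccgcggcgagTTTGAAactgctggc
Top2a had 6 CCAAT and 2 TTTGAA matches and Cdk1 3 and 2. The window of Birc5 held neither set of letters. Among DNA replication genes the shares were 8 and 1 of 15. Genes called higher as a whole held CCAAT in 38.5% and TTTGAA in 14% of windows, close to the share of all genes.

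Some genes of growth signalling and stress were called higher. Of 14 MAPK feedback and output genes, 6 rose and none fell (24.8% and 21.0% of all genes tested rose and fell). Ccnd1, the cyclin D1 gene that opens the cell cycle, was far the most abundant of those called, with 6.33, 9.95 and 14.3 CPM in vehicles and 56.4, 77.6 and 113 in tumors, and tumor 7, although the lowest, was near the others there (log2 fold change 3.06 ± 0.21, adjusted p = 5.06e-07). Dusp5 and Dusp4, phosphatases that switch ERK off, rose by 2.56 and 1.37, and Spry1, a feedback inhibitor, by 0.63. Dusp6 and Myc did not pass, at 0.0047 and 0.25.

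Of 18 targets of NRF2, the transcription factor of the antioxidant response, 12 rose (24.8% of all genes tested did) and 1 fell. Slc7a11, described above, is on this list. Of the glutathione transferases, Gstm3 had 8.70, 16.4 and 22.8 CPM in vehicles and 51.0, 336 and 827 in tumors (log2 fold change 4.73 ± 0.54, adjusted p = 2.67e-05), Gsta2 6.52, 9.10 and 12.2 against 37.6, 77.0 and 146, and Gsta4 rose by 1.70. Cbr3, a carbonyl reductase, and Nqo1, the quinone reductase used as a marker of the pathway, rose by 5.38 and 2.65. Gclc and Gclm, the subunits of the enzyme that starts glutathione synthesis, and Hmox1, which breaks down haem, did not pass the test (0.10, 0.077 and 0.27). Me1, an NADPH source that is also a lipogenic gene, fell by 1.34. The core of the antioxidant response element, TGACNNNGC, stood in 4 of 14 windows of the list (28.6%, against 13.7% of all genes tested), and not in those of Gsta1, Gsta2 or Gstm3.

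Of 14 p53 target and senescence genes, 10 rose (24.8% of all genes tested did) and none fell. Cdkn1a, the p21 inhibitor of cyclin-dependent kinases, had 9.11, 18.7 and 22.2 CPM in tumors, with every tumor above the vehicles, which had 0.939, 1.68 and 6.64 with vehicle 5 as the highest. Its log2 fold change was 2.93 ± 0.43, and 3.65 without vehicle 5. Phlda3, an inhibitor of AKT, and Eda2r, a death receptor, rose by 3.61 and 2.95. Mdm2, which degrades p53, and Ccng1 stood at 0.19 and 0.16 and did not pass. Of 15 genes of the integrated stress response, 9 rose, beside the same 24.8% of all genes, and 1, Atf4 itself, fell. Atf3, a stress-induced transcription factor, had 0.408, 0.934 and 1.11 against 4.57, 8.14 and 18.4 CPM. Psat1 and Phgdh of serine synthesis and Trib3, a pseudokinase, rose by 2.72, 1.69 and 1.48, all from vehicle medians under 5 CPM. With all 10-month groups in a shared fit, 5 of the 15 were called higher.

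**Figure D3:**
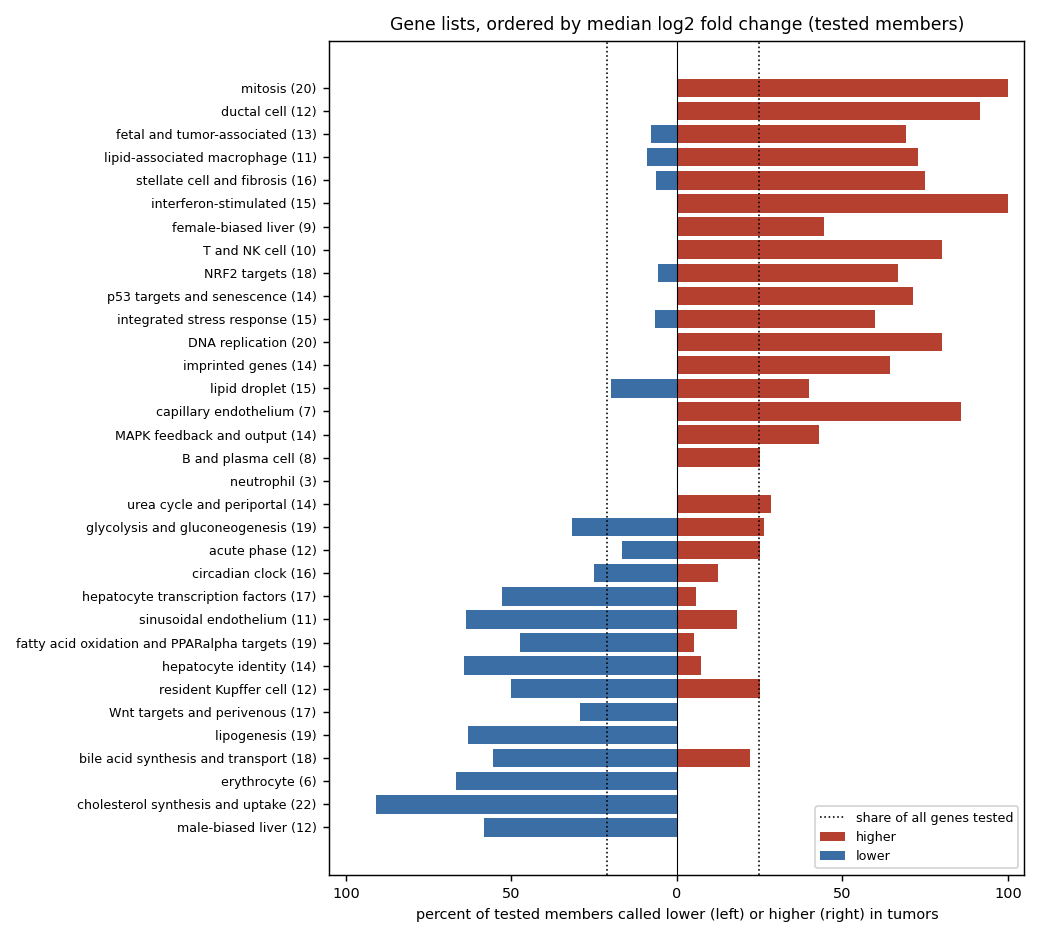
Percent of tested members called higher (red, right) and lower (blue, left) in tumors for each gene list with at least 3 tested members, ordered by median log2 fold change, with the number tested in brackets and dotted lines at the share of all genes tested. Mitosis and interferon-stimulated genes reach 100% higher, and cholesterol synthesis and uptake has the largest share lower.

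Genes of the fetal liver and imprinted genes were called higher more than lower, where 24.8% of all genes tested were called higher and 21.0% lower. Of 18 fetal and tumor-associated genes, 13 passed the filter on low counts, of which 9 rose and 1 fell, the insulin-like growth factor 2 mRNA-binding protein gene Igf2bp2. Besides H19 and Ly6d, Golm1, a Golgi membrane protein, had 1.76, 2.37 and 3.18 CPM in vehicles and 5.28, 22.1 and 52.8 in tumors, Scd2, the stearoyl-CoA desaturase of brain and fetal liver, 7.87, 9.55 and 12.9 against 16.5, 93.9 and 209, and Cd24a, a progenitor surface antigen, 1.76, 2.15 and 4.15 against 6.80, 12 and 13.6. Tspan8, a tetraspanin, rose by 3.99. Afp, alpha-fetoprotein, rose by 1.25 and stayed between 3.93 and 17.3 CPM in tumors. Gpc3, the glypican used as a human tumor marker, did not pass (0.51). Igf2, the growth factor whose locus adjoins H19, was under the filter: it measured 9.03 CPM in tumor 5 and 4.96 in tumor 6, and at most 0.247 in the other 5 tumors. Of 14 imprinted genes tested, 9 rose and none fell. Impact, a regulator of translation, rose by 0.91, Sgce, a sarcoglycan, by 0.88 and Grb10, an inhibitor of insulin signalling, by 0.61.

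The maternally expressed RNAs Rian and Meg3 and the paternally expressed Dlk1, neighbours in an imprinted cluster on chromosome 12, were high in tumor 6 alone. Rian stood at 97.6 CPM there and between 0.742 and 3.80 in the other 6 tumors, Meg3 at 24.7 against at most 1.60, and Dlk1 at 39.7 against at most 0.732. The vehicles had at most 0.659, 0.571 and 0.0439 CPM. The log2 fold change of Rian, 4.88 ± 1.42, came to 1.80 without tumor 6 (adjusted p = 0.00319) and to 1.71 with DESeq2.

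Of 14 hepatocyte identity genes, 9 fell and 1, the haem carrier hemopexin gene Hpx, rose, against 21.0% and 24.8% of all genes tested. The median of the 14 was -0.46. Their summed level was 101779 to 163566 CPM in tumors and 162482 to 190598 in vehicles. Apoa2, a protein of high-density lipoprotein, had 5712, 6045 and 6475 CPM against 2779, 3306 and 4086 (log2 fold change -0.85 ± 0.10, adjusted p = 1.72e-05). Cyp2e1, an ethanol-oxidising cytochrome P450, fell the furthest of the 14, by 1.77. Alb, albumin, fell by 0.45 and Ttr, transthyretin, by 0.66. Apob, Tat, Tdo2 and Ahsg did not pass. With total counts as the scale 5 of the 14 were called lower.

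Of 17 hepatocyte transcription factors, 9 fell and 1, the xenobiotic receptor PXR (Nr1i2), rose, against 21.0% and 24.8% of all genes tested. Nr1h4, the bile acid receptor FXR, had 129.9, 156 and 187 CPM in vehicles and 65.8, 72.7 and 92.4 in tumors, with no overlap (log2 fold change -1.01 ± 0.11, adjusted p = 1.49e-05). Nr1i3, the xenobiotic receptor CAR, had 42.6, 58.4 and 130.1 against 4.38, 11.6 and 40.8 CPM, and the highest tumor lay just under the lowest vehicle. Ppara, the receptor that drives fatty acid oxidation, fell by 0.68 and Cebpa, a factor of the quiescent hepatocyte, by 0.45. Hnf4a, the central factor of hepatocyte identity, was at -0.10 and did not pass. Under total counts Cebpa was no longer called (-0.16, adjusted p = 0.123) and 5 of the 17 were lower.

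Zonation genes divided the tumors. Of 17 Wnt target and perivenous genes, 5 fell (21.0% of all genes tested did) and none rose. The count was 2 under total counts, 2 without the filter on low counts and 2 against low-risk livers, and it became 12 when tumor 6 was left out and 3 without vehicle 2. Cyp2e1, the ethanol-inducible cytochrome of perivenous cells, had 5985, 7397 and 11100 CPM in vehicles and 587, 1684 and 6119 in tumors, the highest in tumor 7 (log2 fold change -1.77 ± 0.47, adjusted p = 0.00770). Glul, glutamine synthetase, was at 2122 CPM in tumor 6, above every vehicle, and at 189.7 to 781 in the other 6 tumors, below every vehicle. It did not pass the test (log2 fold change -1.09 ± 0.51, adjusted p = 0.0999). Axin2, the feedback target of Wnt signalling, was likewise highest in tumor 6, at 24.3 CPM against 5.79 to 15.5 in vehicles, and ran from 3.18 to 15.5 in the other tumors. Gulo, which makes vitamin C, fell by 0.95. Cyp1a2, which metabolises caffeine, and Lect2, a hepatokine, fell by 1.40 and 0.85, and neither was called under total counts or without the filter. Cyp1a2 came to -2.06 without tumor 6, and Lect2 lost its call without any of 6 libraries, with adjusted p-values up to 0.0592. The list's median difference from the vehicle mean was 0.39 in tumor 6 and 0.011 in tumor 7 and between -2.11 and -0.82 in the other 5. Of 14 urea cycle and periportal genes, 4 rose and none fell, a share near the 24.8% of all genes called higher, and 7 rose under total counts. Sds, serine dehydratase, and Cdh1, E-cadherin, rose by 1.22 and 1.25. Hsd17b13, a lipid droplet enzyme, rose by 1.10. Cps1, which starts the urea cycle, did not pass (-0.38).

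Genes of the male liver were lower. Of 12, 7 fell and none rose, against 21.0% and 24.8% of all genes tested. In all 7 every tumor was below every vehicle (8.92% of all genes tested had that pattern). Besides Hsd3b5, Susd4 and Slco1a1, Mup21 fell by 2.5, Elovl3, a fatty acid elongase, by 2.08, Cyp2d9, a steroid hydroxylase, by 1.38 and Cyp7b1, an oxysterol hydroxylase, by 1.26. Cyp4a12a, Selenbp2 and Mup20 did not pass, at -0.33, -0.20 and -0.23. Of 14 female-biased genes, 9 passed the filter and 4 rose, among them Cyp3a44 and the flavin monooxygenase gene Fmo2 by 1.65 and 1.05, and Cyp2b10, the cytochrome that CAR induces, from at most 0.0879 CPM to 0.358, 1.91 and 31.2. Cyp2b10 was high in tumors 1, 3 and 12 and under 2 CPM in the other 4.

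Bile acid genes moved in both directions. Of 18, 10 fell, counting Nr1h4, Slco1a1 and Cyp7b1 of the lists above, and 4 rose, against 21.0% and 24.8% of all genes tested. Cyp8b1, the sterol 12-alpha-hydroxylase, fell by 2.11 and Cyp27a1, of the alternative pathway, by 1.10 (vehicles 593, 709 and 864 CPM, tumors 263, 301 and 454). The importers Slc10a1 and Slco1b2 fell by 1.85 and 1.48, and the canalicular pump Abcb11 by 0.40. Cyp7a1, the rate-limiting enzyme of bile acid synthesis, did not pass (-1.07). Abcc4, an exporter towards the blood, had 2.97, 3.45 and 3.87 CPM in vehicles and 9.67, 35.1 and 61.8 in tumors, and Slc51b, a subunit of a basolateral exporter, rose by 3.87.

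Cholesterol synthesis and uptake was the list with the largest share lower: 20 of 22 fell and none rose, against 21.0% and 24.8% of all genes tested. The median was -0.90, and 14 were still lower under total counts. Hsd17b7 and Tm7sf2, late enzymes of the pathway, had 91.0, 107 and 129 and 114, 146 and 163 CPM in vehicles and 38.6, 44.0 and 54.4 and 23.1, 42.4 and 51.5 in tumors. The first had a log2 fold change of -1.23 ± 0.092 and an adjusted p of 5.94e-07. Ebp and Idi1, isomerases of the pathway, fell by 0.63 and 1.25. Srebf2, which encodes the transcription factor of the pathway, did not pass (-0.034).

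Lipid genes followed several directions. Of 19 lipogenesis genes, 12 fell and none rose, 5 under total counts. Dgat2, the last step of triglyceride synthesis, had 558, 604 and 699.9 CPM in vehicles and 261, 289.8 and 397 in tumors (log2 fold change -0.98 ± 0.11, adjusted p = 9.94e-06). Mlxipl, the carbohydrate-responsive factor ChREBP, fell by 0.76 and Agpat2 by 0.57. Scd1, the main adult desaturase, fell by 1.18 while its relative Scd2 rose as given above. Fasn and Srebf1 did not pass (-0.26 and -0.021). Of 19 genes of fatty acid oxidation, 9 fell and 1 (Ehhadh, of the peroxisome) rose, or 4 and 3 under total counts (21.0% and 24.8% of all genes fell and rose). Fabp1, the liver fatty acid-binding protein, fell by 1.06. Acadvl and Slc25a20 fell by 0.35 and 0.55, and neither was called under total counts.

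Of 15 lipid droplet genes, 6 rose and 3 fell, the latter near the 21.0% of all genes, and under total counts 9 rose and 1 fell. Cidec, a protein of large droplets, had 1.59, 4.66 and 5.29 CPM in vehicles and 21.1, 49.3 and 153 in tumors (log2 fold change 4.04 ± 0.46, adjusted p = 2.81e-05). Cd36, a fatty acid importer, had 31.0, 73.2 and 132 against 144, 332 and 502, and Fabp4, of fat cells and macrophages, 3.83, 4.75 and 5.99 against 11.6, 30.1 and 179.8 with tumor 12 far above the rest. The log2 fold change of Fabp4 was 3.28, and 2.34 without tumor 12. G0s2, an inhibitor of triglyceride breakdown, fell by 1.59. Among 19 genes of glycolysis and gluconeogenesis, 5 rose, near the 24.8% of all genes tested, and 6 fell (21.0% of all genes did). Under total counts 6 rose and 2 fell. Those that rose include isoenzymes that other tissues use more than adult liver: Pkm went from 16.4, 18.5 and 22.3 to 27.6, 36.1 and 50.1 CPM, Hk2 from 2.41, 3.03 and 3.34 to 6.34, 10.00 and 26.0, and Pfkp and Aldoa rose by 2.41 and 0.45. Pklr, the liver form of pyruvate kinase, fell by 1.19, as did G6pc, which releases glucose, by 0.70.

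Interferon-stimulated genes rose together. All 15 of 15 were called higher (24.8% of all genes), with a median of 1.80, and in 14 every tumor was above every vehicle (11% of all genes). Usp18, which restrains interferon signalling, had 4.17, 5.37 and 6.20 CPM in vehicles and 20.1, 25.0 and 51.7 in tumors (log2 fold change 2.56 ± 0.24, adjusted p = 4.78e-06). Cxcl10, a chemokine for T cells, had 0.653, 1.28 and 1.63 against 4.74, 7.22 and 14.1, and Mx1 and Isg15, antiviral proteins, rose by 2.42 and 1.94. Tumor 1 was the highest tumor, with a list median of 2.8 above the vehicles against 1.39 to 1.78 in the other 6. Of 12 acute phase genes, 3 rose and 2 fell, near the shares over all genes (24.8% and 21.0%). Lcn2, lipocalin 2, had 0.991, 7.46 and 22.2 CPM against 24.6, 149.9 and 455 and Orm2, an orosomucoid with close copies, 9.25, 15.6 and 29.7 against 23.3, 92.7 and 361, while Crp and Apcs, the pentraxins, fell by 0.98 and 0.68. The log2 fold change of Lcn2, 4.37, was 4.99 without vehicle 5. Of 16 clock genes, 2 rose and 4 fell, against 24.8% and 21.0% of all genes, and 2 fell under total counts. Noct, a phosphatase with rhythmic liver expression, had the smallest adjusted p of the named genes (2.63e-08): it measured 3.56, 4.31 and 8.88 CPM in vehicles and 123, 139 and 189 in tumors, a log2 fold change of 4.85 ± 0.22 with little spread. Nfil3, a repressor of the clock's output genes, fell by 1.04. Arntl and Per2, of the core loop, did not pass (-0.30 and -0.38), and the time of day of collection is not given in the sources used here.

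Markers of other cell types moved as well, and their part in the results above was not tested. Of 16 stellate cell and fibrosis genes, 12 rose and 1 fell, against 24.8% and 21.0% of all genes tested. The sum of the 16 was 688 to 1205 CPM in tumors and 375 to 627 in vehicles. Col1a1, fibrillar collagen, had 3.42, 3.60 and 6.24 CPM against 30.8, 46.7 and 80.7 (log2 fold change 3.73 ± 0.30, adjusted p = 1.67e-06), and Col1a2, Col4a1 and the receptor gene Pdgfrb rose by 2.35, 1.82 and 1.58. Lrat, the retinol-storing enzyme of quiescent stellate cells, fell by 0.59. Acta2, of activated ones, and Reln did not pass (0.54 and -0.085). Of 12 ductal genes tested, 11 rose and the sum went from 54.0 to 72.8 CPM in vehicles to 198 to 855 in tumors, most of it Spp1, osteopontin, at 124, 244 and 775. Bicc1, an RNA-binding protein, rose by 3.07, Prom1, prominin, by 2.51, Epcam, an epithelial adhesion molecule, by 2.5 and Cftr, a chloride channel, by 4.49. Krt19 and Krt7, ductal keratins, rose by 2.01 and 1.96.

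Macrophage markers moved in opposite directions. Of 12 resident Kupffer cell genes, 6 fell (21.0% of all genes tested did) and 3, the complement C1q chain genes, rose, near the 24.8% of all genes. Timd4, a receptor for dying cells, had 5.42, 6.68 and 8.59 CPM in vehicles and 0.318, 0.629 and 0.985 in tumors, and Marco, a scavenger receptor, 7.19, 11.4 and 28.2 against 1.10, 2.37 and 3.15. Clec4f, the lectin that defines mouse Kupffer cells, fell by 0.85, while Vsig4, Cd5l and Adgre1 (F4/80) did not pass. The 3 C1q calls were lost without the filter on low counts, and 1 remained without vehicle 2. Against low-risk livers no gene of the list was called higher. Of 11 genes of lipid-associated macrophages, 8 rose and 1, Fabp5, fell. Gpnmb, a glycoprotein of lysosome-rich macrophages, had 0.519, 0.826 and 1.67 CPM against 12.1, 31.7 and 54.0 (log2 fold change 5.21 ± 0.45, adjusted p = 3.83e-06), Trem2, a lipid receptor, 0.559, 0.833 and 1.15 against 3.93, 6.18 and 12.8, and Itgax, CD11c, 0.785, 1.36 and 1.46 against 8.83, 11.3 and 30.9. Lpl, lipoprotein lipase, rose by 3.19 and the tetraspanin gene Cd63 by 4.2. Tumor 7 was not apart in Gpnmb, where it gave 54.0 CPM, the highest of the 7.

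Of 11 sinusoidal endothelial genes, 7 fell and 2 rose, against 21.0% and 24.8% of all genes tested. Under total counts 2 fell and 3 rose. Clec4g, a sinusoidal lectin, fell by 0.93, Ehd3 by 0.70 and Stab2, a scavenger receptor for hyaluronan, by 0.49, whereas Lyve1, the hyaluronan receptor, rose by 1.20. Of 7 capillary endothelial genes, 6 rose, 3 without tumor 5. Esm1, endocan of sprouting tip cells, had 0.163, 0.299 and 0.519 CPM against 3.93, 8.18 and 10.4 and Cd34 0.527, 1.41 and 4.44 against 6.37, 12.7 and 16.4. Aplnr, the apelin receptor, gave no count in any vehicle and 0.269, 1.53 and 4.24 CPM in tumors, which is at least 13.1-fold higher against the limit that 3 counts per vehicle library allow. Of 10 T and NK cell genes tested, 8 rose. Cd8a, the coreceptor of cytotoxic T cells, had 0.151, 0.364 and 0.559 CPM against 1.16, 1.49 and 2.79, and the list summed to 8.37 to 22 CPM in tumors and 4.41 to 6.44 in vehicles. Of 8 B and plasma cell genes tested, 2 rose, near the 24.8% of all genes, among them Igha, the IgA heavy chain, by 1.87. Of 3 neutrophil genes tested, S100a8, S100a9 and the receptor gene Cxcr2, none passed edgeR's test (adjusted p = 0.681, 0.716 and 0.238), and none had an unadjusted p under 0.05. Of 6 erythrocyte genes, 4 fell: Hbb-bs and Hba-a1, haemoglobin genes with near-identical copies, by 0.94 and 0.95, and their calls were lost under total counts. Without vehicle 7 the list's count was 1. The 7 pancreatic acinar genes were all under the filter, with sums of at most 3.11 CPM in tumors and 3.47 in vehicles.

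The tumors differed among themselves more than the vehicles did. Over 13083 genes averaging 1 CPM or more, the median SD of log2 CPM was 0.240 among tumors and 0.163 among vehicles, and 76.8% of genes had the larger SD in tumors. Tumor 7 stood apart in cell division genes. Its mitosis list lay 0.44 above the vehicle mean in median log2 difference, against 2.94 to 4.13 in the other 6, its DNA replication list was at -0.16 against 0.69 to 1.43, and its fetal list at 0.73 against 1.85 to 2.48. It was like the other tumors in stellate genes (1.41, within 1.25 to 2.03) and lowest in cholesterol genes (-1.32). Tumor 11 had the lowest Kupffer (-1.87), perivenous (-2.11) and male-biased (-1.94) medians and the highest lipid-associated macrophage median (3.00). Without tumor 7, 7314 genes were called in place of 7016.

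The genes that varied most over the tumors, beyond H19, Spink1 and Rian, were Ttn and Moxd1. Ttn, titin of striated muscle, was at 61.5 CPM in tumor 3 and 135 in tumor 5, and at 1.61 to 1.91 in the other 5, next to 0.747, 1.07 and 1.86 in vehicles. Its log2 fold change of 4.64 ± 1.35 (adjusted p = 0.0126) rests on those tumors, and without tumor 5 it was 3.35 (adjusted p = 0.0278). Moxd1, a monooxygenase, ranged from 0.247 to 17.4 CPM in tumors. The vehicles had 6.99, 132 and 158, with vehicle 6 inside the tumor range (log2 fold change -3.95 ± 0.85, adjusted p = 0.00199).

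**Figure D4:**
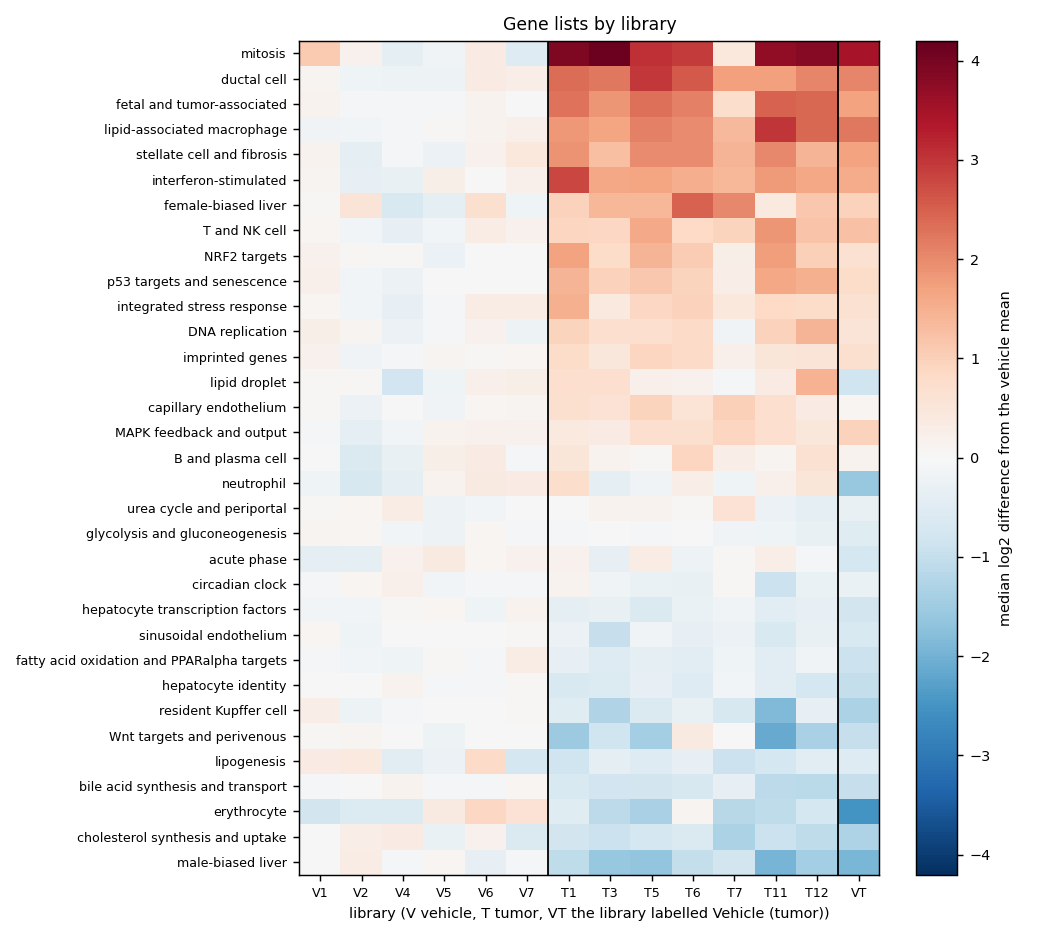
Median over the tested members of each gene list of the log2 difference from the vehicle mean, 1 column per library (V vehicle, T tumor, VT the library labelled Vehicle (tumor)), red above and blue below the vehicle mean. Tumor 7 is pale for mitosis (0.44) where the other tumors are dark (2.94 to 4.13), and tumors 6 and 7 are pale for Wnt targets and perivenous genes.

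Expression also shifted by chromosome. For each library the median log2 difference from the vehicle mean was taken over the protein-coding genes of each chromosome, 12217 genes in all, and the median over all these genes was subtracted. The 6 vehicles stayed between -0.027 and 0.03 on every chromosome, and the 5 low-risk livers, which did not set the reference, between -0.042 and 0.025. The tumors ran from -0.35 (chromosome 19, tumor 11) to 0.41 (chromosome 15, tumor 12). Chromosomes 4, 9 and 19 were below every vehicle in all 7 tumors and chromosomes 16 and 18 above in all 7. Chromosome 15 divided them: tumors 11 and 12 were at 0.40 and 0.41, tumors 3 and 1 at 0.26 and 0.20, and tumors 5, 6 and 7 at -0.0081, 0.039 and 0.027. On chromosome 13 tumor 1 was the lowest, at -0.23, and on chromosome 12 tumor 11, at -0.31. Tumor 7 had the narrowest range of the tumors, -0.072 to 0.085. In counts of calls, 34.7% of genes on chromosome 15 were higher and 9.95% lower, against 18.8% and 35.6% on chromosome 4 and 19.5% and 35.8% on chromosome 19. The uninvolved livers of high-risk mice ran from -0.22 to 0.24, with both ends in libraries 3 and 6, and the Vehicle (tumor) library from -0.16 to 0.27. Every uninvolved library was below the vehicles on chromosome 4 (-0.15 to -0.079) and above them on chromosome 16 (0.034 to 0.14). On chromosomes 9, 18 and 19 the uninvolved ranges reached into that of the vehicles (-0.18 to -0.00028, -0.025 to 0.095 and -0.079 to 0.093). The Vehicle (tumor) library stood at -0.14 on chromosome 4 and 0.13 on chromosome 16. DNA copy number was not analysed here.

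**Figure D5:**
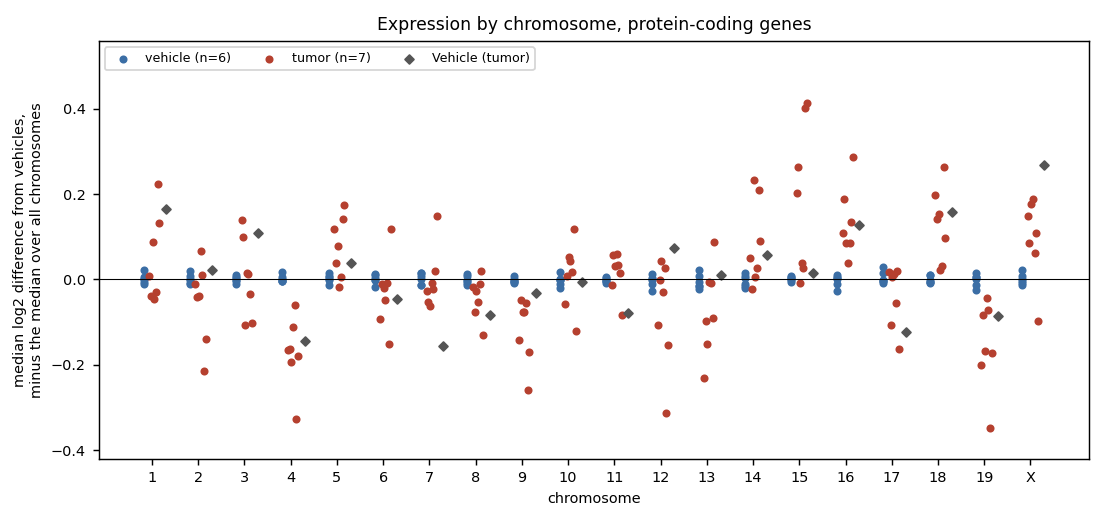
Median log2 difference from the vehicle mean over the protein-coding genes of each chromosome, minus the median over all these genes (vertical axis), 1 point per library: 6 vehicles (blue), 7 tumors (red, in the order 1, 3, 5, 6, 7, 11, 12 from left to right) and the Vehicle (tumor) library (grey diamond). Vehicles lie within -0.027 to 0.03, and chromosome 15 reaches 0.41 in tumor 12.

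By gene class, 27.2% of 13339 protein-coding genes were higher and 21.5% lower, whereas long noncoding RNA genes were 9.40% higher and 19.6% lower (of 1383). Small noncoding RNA genes leaned further, with 5 higher and 26 lower of 112. The median log2 fold change of these classes was 0.018, -0.24 and -0.20.

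The low-risk comparison gave each leading gene a value against exposed liver without tumor. It uses the same 7 tumors, so it is not a second set of tumors. There 3319 genes were higher and 2386 lower of 15557 tested (21.3% and 15.3%, 36.7% in all, or 5522 and 791 under total counts, a shift of the median gene of 0.23). The log2 fold change of H19 was 7.79 there, with low-risk livers at 0.320 to 7.80 CPM, and that of Slc7a11 6.18, with 0 to 2.27. Hsd3b5 and Cd163 stood at -4.79 and -4.36, Noct at 4.39, Gpnmb at 5.79 and Cdk1 at 3.79. Mitosis genes were called higher in 20 of 20, interferon-stimulated genes in 15 of 15 and cholesterol genes lower in 20 of 22. Some genes named here as called against vehicles were not called against low-risk livers. Among these were Nfil3 and Clock (edgeR's adjusted p = 0.384 and 0.534), Cyp1a2 and Lect2 (0.108 and 0.129), Sgce (0.173) and Gls2 (0.0587). Others were Alb, Hpx, Nr1i2 and G6pc (0.108, 0.317, 0.0679 and 0.128) and Igha and Cd79b (0.0572 and 0.155). The haemoglobin genes Hbb-bs, Hbb-bt and Hba-a1 were not called either (0.399, 0.399 and 0.427). No resident Kupffer cell gene was called higher there, so the C1q chain genes belong here too. Whether the 2 comparisons differ for these genes was not tested. The Mup sum of the low-risk livers was 19341 ± 4460 CPM (SD, n = 5).

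Uninvolved liver of the high-risk mice, which carries mouse numbers found among the tumors, is given as levels with no test. Libraries 3 and 6 of that group differed by less than the sampling noise (a ratio of 0.562, where the next closest pair had 3.70) and count as 1 sample. For several leading genes these livers were nearer to the tumors than to the vehicles: Hsd3b5 lay between 2.41 and 17.9 CPM, Cd163 between 0.646 and 1.61 and Noct between 79.2 and 404. H19 ran from 7.13 to 554 CPM there, within the tumor range, and Slc7a11 from 2.46 to 8.27, at the low end of the tumors. Cdk1 ran from 0.728 to 10.2 CPM.

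The library labelled Vehicle (tumor) came from a mouse without TBT, at lower depth and with a higher mitochondrial share than any other 10-month library. Of the 10 genes with the largest increases in tumors, 9 were above every vehicle in it, among them H19 at 354 CPM, Slc7a11 at 20.8 and Cyp2a4 at 223. Spink1, at 0.0755 CPM, was in the vehicle range. All 10 genes with the largest decreases were below every vehicle, with Hsd3b5 at 2.49 and Cd163 at 1.13 CPM, and Dct gave no count. Its mitosis median was 3.46 above the vehicles, its Wnt and perivenous median -0.97 and its Mup sum 6066 CPM. Cdkn1a, at 52.9 CPM, was above every tumor. This is a single library, and its values have no replicate check.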

How the data were processed

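Liver RNA was extracted with RNeasy columns and DNase and made into libraries with the TruSeq Stranded Total RNA kit, per the labels' protocols. The authors deposited 1 table of read counts per gene for 75 libraries, with Trim Galore, HISAT2, featureCounts and the mm10 build named in the submitters' processing notes. The table's name says that the deposited counts were adjusted with ComBat-seq, a batch correction that returns whole counts. Its settings, the strand setting and the annotation are not given in the sources used here. Overlapping and antisense genes and near-identical copies are therefore uncertain. Low counts carry that adjustment.

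The 25 libraries of 10 months were used. The gene lists were chosen with earlier results of these data known. Tumors (7) were compared with vehicles (6) and, separately, with low-risk livers (5) by edgeR 4.0.16 (limma 3.58.1, R 4.3.3): filterByExpr by group, TMM, robust quasi-likelihood fit, Benjamini-Hochberg adjustment over all genes tested, threshold 0.05. Standard errors are the log2 fold change over the root of F. The script was tested on simulated data. CPM values are on TMM-scaled sizes over all 25 libraries, and log2 CPM used a prior count of 2. The Slc7a11 ratio has an exact 95% interval for counting error, and the floor for a gene with no vehicle count was 3 counts per library.

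Named genes were chosen by rule: the 10 largest changes in each direction among called genes that do not overlap and average at least 5 CPM, 4 genes of smallest p per list, and the 5 most variable among tumors. In the first and last set predicted genes, Mup genes and small noncoding RNAs were left out. Other list members named, called or not, and Cyp2c37 in tumor 6, Igf2, Meg3 and Dlk1 were chosen after their values were seen. Some list members are counted in their lists but not reported singly here. All 55536 gene IDs matched GENCODE M21 (GRCm38), which gave positions and classes. Alternatives were RLE factors, total counts, no filter, DESeq2 1.42.0, a fit with all 10-month groups, each library left out, and the title's number as a block.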

Additional observations from a re-analysis of the deposited data

Results flagged for a closer look

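In 290 groups of values (genes picked by the naming rule, in tumors and in vehicles), 24 had 1 library far from the rest by Dixon's ratio on log2 CPM, 15 in tumors and 9 in vehicles. Chance flags about 1 in 20 groups of unselected, independent values. The genes here were picked by fold change, p or spread and share the same libraries, so that rate does not apply directly.

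Tumor 7 was the lowest tumor, far from the others, for 8 genes. Among these were Cdk1 (1.07 CPM, the next tumor at 9.25), Nusap1 (1.52), Top2a (3.63), Mcm5 (1.52), Pole (2.86), Gsta1 (3.36) and Gstm3 (51.0). The other was Gsta4, at 43.7 CPM. The Gpnmb of tumor 7, at 54.0 CPM, was the highest of the tumors.

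Other tumors stood apart for single genes. Rian was at 97.6 CPM in tumor 6, next to 3.80 in the following tumor. Fabp4 (179.8) and Hk2 (26.0) were high in tumor 12, and Isg15 (16.5) in tumor 1. Tumor 11 had the highest Itgax (30.9) and the lowest Cd163 (0.283), and tumor 3 the lowest Lyve1 (6.92).

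Among vehicles, number 1 was low for H19 (0.124 CPM) and Itgax (0.785), number 2 for Rian (0.188), number 4 for Cxcl10 (0.653), number 6 for Moxd1 (6.99) and number 7 for Cd163 (13.8). Number 5 was high for Cdkn1a (6.64) and number 7 for Col1a1 (6.24) and Klrb1c (0.220).

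The library labelled Vehicle (tumor), which enters no comparison, was above every vehicle for 9 of the 10 genes with the largest increases in tumors.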

How the results depend on the processing

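Under RLE size factors, DESeq2, no filter on low counts and a fit with all 10-month groups, the counts of called genes in both comparisons stayed within 1.5 times their main values. Leaving out 1 library gave 6267 to 7314 called genes against vehicles (3413 to 4057 higher, 2708 to 3257 lower) and 4667 to 6286 against low-risk livers. Total counts, an alternative chosen after seeing the data, gave 7413 higher and 874 lower against vehicles, and 5522 and 791 against low-risk livers. That scale moves every gene by the same amount per library, and it is the setting under which the list medians of glycolysis (0.121) and acute phase genes (0.0731) turned positive. Under total counts the log2 fold change of Alas2 against low-risk livers only changed sign, to 0.013, and was not called (edgeR's adjusted p = 0.911). With title numbers taken as a replicate block, 4123 genes were called (2397 higher, 1726 lower). Those numbers are shared by different mice, and the deviations of same-numbered libraries correlated at 0.0681, -0.0583, 0.0516 and 0.161 for numbers 1, 5, 6 and 7, so they were not taken to pair the samples. Of 146 named genes, 19 lost their call with the block, 6 without some library (Lect2, Gls2, Cd79b, Hba-a1, Hbb-bs and Hbb-bt), 11 under total counts, 6 without the filter, 3 (Clock, Hba-a1 and Hbb-bs) in the shared fit, and none with RLE or DESeq2. Of 47 list counts, 16 moved by over 1.5 times under total counts, 15 with the block, 9 without the filter, 9 without some library and 2 in the shared fit. The cause of the other changes was not tested. Depth limits genes with a few counts per vehicle library, whose fold changes are large and imprecise.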
